A study of Mus musculus with 14 samples.

Results

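The genes described here are 37 chemokines and inflammatory cytokines of the mouse, the secreted and membrane-bound proteins that call leukocytes into tissue and carry signals between immune and stromal cells. They were chosen by name, as a list of gene symbols, and all 37 were found among the 56941 genes counted in aortic valve leaflets. 36 of them had a mean of at least 10 counts per library and were tested, and Csf3, the growth factor of granulocytes, had 0 counts in all 14 libraries. With 754452417 counts in all, 0 counts of Csf3 allow a share of up to 3.98e-07% (the share of 3 counts, counting error only). This limit takes each count as independent. Low counts were more often even than odd, so they may not be, and the limit may be higher.

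Valves came from 14 male wild type C57BL/6J mice, 8 weeks old at the start and all fed a Breslow Western Diet. 1 bulk RNA-seq library per mouse is used here, from 4 Ctrl mice without drug, 2 LY mice given LY272015, which blocks the serotonin receptor HTR2B, 4 AngII mice infused with angiotensin II, and 4 AngII+LY mice given both. AngII ran from subcutaneous osmotic pumps at 1000 ng/kg/min for 28 days, and LY272015 was injected at 3 mg/kg, on every other day by the sample labels and less often by the series text. The series text places the AngII and AngII+LY mice 48 h after pump removal, whereas the methods describe removal for a subset, and which mice had it was not resolved here. Some dosed samples carry neighbouring compound numbers on their labels, and their groups were taken from the sample titles. The comparisons ask what AngII does to valve transcripts and what the antagonist does with and without AngII.

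Chemokines fall into families by the spacing of their first cysteines, and most bind G protein-coupled receptors on leukocytes, while atypical receptors take them up without signalling. Interleukin-1 family cytokines act as alarm signals, some stored in the nucleus of stromal cells and some cut by caspases, and cytokines of the IL-6 family signal through the shared receptor chain gp130. In aortic valves, resident macrophages, interstitial cells and endothelium are all known sources of such factors, and inflammatory signalling is a known feature of valve disease.

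Library totals ranged from 20990655 to 73128220 counts, the smallest being AngII 4 and the next smallest, AngII+LY 3, at 41610931. The mitochondrial share of counts ran from 4.0% to 7.52% for Ctrl and from 8.62% to 9.76% for LY. For AngII the share was 9.83% to 25.5%, and for AngII+LY 10.11% to 20.18%, so all dosed mice lay above Ctrl. Summed markers of valve interstitial cells and fibroblasts, of which all 10 were detected, lay at 809320 to 935181 normalised counts in AngII and 307696 to 538316 in AngII+LY, without overlap. Cardiomyocyte markers, as many in number, were also present in every library, with sums of 340331 to 874362 for AngII and 848185 to 2368742 for AngII+LY. In bulk tissue, fewer cells of a type cannot be told apart from less RNA per cell, and the part of these shifts in the results below was not tested. Levels are given as normalised counts, that is counts scaled to a common library size with TMM factors.

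To show the regulatory sequence of the genes whose values the results turn on, the 250 bases upstream of the start of the canonical transcript were read from GRCm39 for Ccl2, Ccl12 and Ccl8. These genes are neighbours in 1 cluster on chromosome 11, all on the plus strand, and their windows are chr11:81926147-81926396, chr11:81992395-81992644 and chr11:82005757-82006006. Capitals mark TTCNNNGAA, the letters that STAT factors are known to bind. The window of Ccl8 holds no match, which says nothing of what binds there.
Ccl2: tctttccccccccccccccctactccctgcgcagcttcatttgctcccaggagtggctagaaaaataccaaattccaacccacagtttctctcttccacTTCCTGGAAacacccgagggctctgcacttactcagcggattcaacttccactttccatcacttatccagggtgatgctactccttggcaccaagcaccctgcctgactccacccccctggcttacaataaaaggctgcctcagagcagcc
Ccl12: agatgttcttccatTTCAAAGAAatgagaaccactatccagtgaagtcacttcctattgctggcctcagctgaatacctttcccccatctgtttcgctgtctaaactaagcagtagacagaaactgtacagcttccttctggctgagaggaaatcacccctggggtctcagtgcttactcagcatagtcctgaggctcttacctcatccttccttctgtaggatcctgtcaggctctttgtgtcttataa
Ccl8: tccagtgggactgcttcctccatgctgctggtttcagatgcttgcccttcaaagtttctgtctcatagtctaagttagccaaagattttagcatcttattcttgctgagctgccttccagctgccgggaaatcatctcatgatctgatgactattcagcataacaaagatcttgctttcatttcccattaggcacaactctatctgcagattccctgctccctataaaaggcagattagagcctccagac

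The same motif stood in the promoter windows of 5 of the 36 members searched (13.9%: Ccl2, Ccl11, Ccl12, Ccl24 and Cxcl14) and in 8.81% of 21770 promoter windows of the same length, 300 bases from 250 before the start to 50 after it. Tslp was not searched. A match to the kappaB consensus, the motif of NF-kB, stood in 8 of the 36 (22.2%) and in 4.87% of all windows, counting both strands. The 8 were Cxcl1, Cxcl2, Cxcl5, Ccl5, Ccl9, Cxcl10, Il6 and Csf1. TGANTCA, the AP-1 motif, was found in 8 of 36 members (22.2%) and 7.14% of all windows. Each match is a description of letters and not a shown binding site.

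Cxcl1, Cxcl2 and Cxcl5, the neutrophil-attracting chemokines of 1 cluster on chromosome 5, shared the same 11 letters at their kappaB match, shown in capitals with 20 bases before and 5 after. Here both strands match, 1 base apart. The windows, on the plus strand of GRCm39, are chr5:91039013-91039048, chr5:91051641-91051676 and chr5:90907109-90907144.
Cxcl1: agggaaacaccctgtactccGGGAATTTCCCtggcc
Cxcl2: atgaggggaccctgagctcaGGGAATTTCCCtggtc
Cxcl5: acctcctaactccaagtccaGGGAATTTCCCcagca

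Control valves transcribed these genes at levels that spanned more than 2 orders of magnitude. Per kilobase of exon, the highest mean was that of Ccl8, at 2601 ± 1550 normalised counts per kb (SD, n = 4), followed by Ccl6 at 1649 ± 594, Csf1 at 1573 ± 129, Cx3cl1 at 1236 ± 264 and Ccl7 at 1234 ± 639. At the other end stood Il6 at 13.4 ± 14.2, Tnf at 7.62 ± 6.84 and Csf3 at 0. Every pair of neighbours in the order of means overlapped between mice, so the order is a description of means. Il1b, the best known inflammatory interleukin, stood at 46.0 ± 13.5 per kb, below Il33 at 534 ± 144 and Il15 at 326 ± 42.1. All 37 genes together took 0.0737% to 0.112% of the counts of Ctrl mice and 0.0778% to 0.0895% of those of LY mice. AngII mice had shares of 0.0458% to 0.0854%, AngII+LY mice of 0.0493% to 0.0632%.

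**Figure D1:**
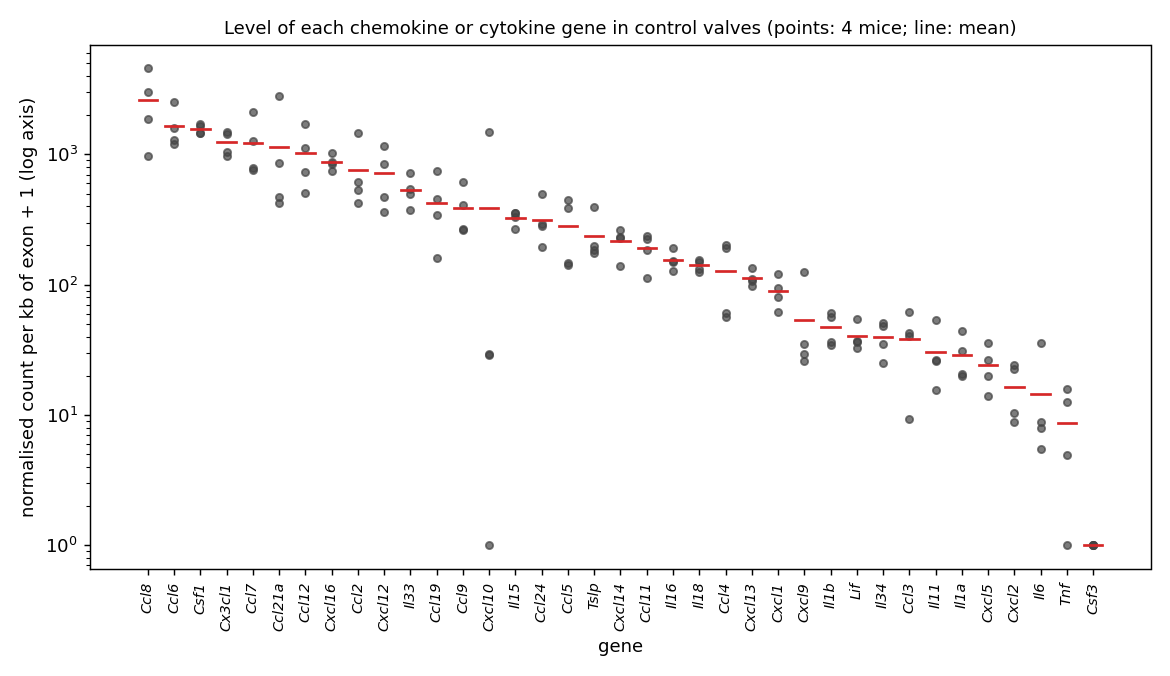
Level of each of the 37 genes in the 4 Ctrl mice, as normalised counts per kb of exon plus 1 on a log axis, ordered by the mean (red line). The chemokine genes Ccl8 (2601 per kb) and Ccl6 (1649 per kb) lead, and Il6, Tnf and Csf3 are the 3 lowest.

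No member passed the test in any comparison. The threshold was an edgeR adjusted p under 0.05 over all 19145 genes tested with an absolute log2 fold change above 0.5, and 0.0% of all genes passed it (0 of 19145 in each comparison). The smallest adjusted p of any gene was 0.0573 for AngII vs. Ctrl, 0.0568 for AngII+LY vs. AngII, 0.0857 for AngII+LY vs. Ctrl and 1 for LY vs. Ctrl. At an unadjusted p under 0.05, 12 of 36 members (33.3%) differed between AngII and Ctrl against 25.2% of all genes. Of these, 5 were higher in AngII (13.9% of members against 13.4% of all genes) and 7 were lower (19.4% against 11.7%). The 4 AngII and 4 Ctrl mice did not overlap for 7 members (19.4%), against 15.0% of all genes, with 2 higher in AngII (against 7.46%) and 5 lower (against 7.56%). Above 0 were 13 of the 36 log2 fold changes, against 47.2% of all genes. DESeq2 on the same counts called 8 members, namely Ccl8, Ccl12, Cxcl14, Csf1, Cxcl5, Il1a, Il11 and Il18, and 2648 genes in all. It called 5 members for AngII+LY vs. AngII, 4 for AngII+LY vs. Ctrl and 0 for LY vs. Ctrl, against 2062, 343 and 21 genes in all (10.8%, 1.79% and 0.11% of those tested, and 13.8% for AngII vs. Ctrl). The median log2 fold change was -0.49 over the members and -0.06 over all genes.

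**Figure D2:**
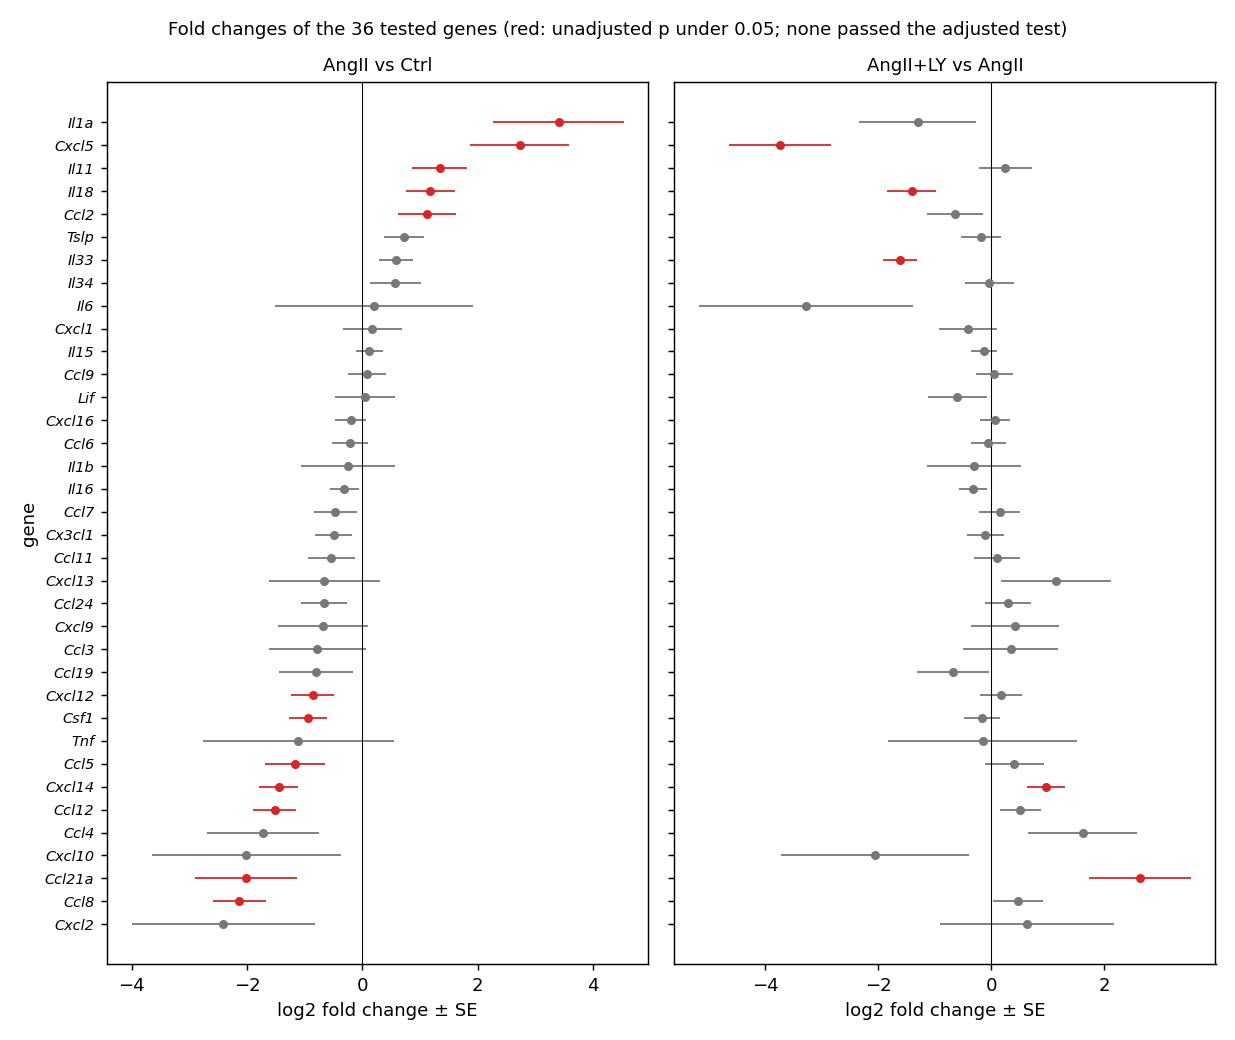
Log2 fold changes with their standard errors (edgeR) for the 36 tested genes, in AngII vs. Ctrl on the left and AngII+LY vs. AngII on the right, in the order of the left panel. Red marks an unadjusted p under 0.05, with 12 genes on the left and 5 on the right, and none of them passed the adjusted test. The panels share the 4 AngII libraries.

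The 9 inflammatory CC chemokines, which draw monocytes, eosinophils and T cells, had 8 log2 fold changes below 0 and 1 above in AngII vs. Ctrl, where 47.2% of all genes were above 0. At an unadjusted p under 0.05, Ccl5, Ccl8 and Ccl12 of the 9 were lower (against 11.7% of all genes) and Ccl2 higher (against 13.4%). Of the 9, 0 passed the adjusted test. Ccl8, a chemokine made largely by macrophages, had 1540, 2354, 959 and 504 normalised counts in the 4 Ctrl mice and 191, 409, 286 and 334 in the 4 AngII mice. Every AngII mouse lay below every Ctrl mouse. Ccl8 had a log2 fold change of -2.13 ± 0.46 (SE), 4.39-fold lower, with an unadjusted p of 0.000367 and an edgeR adjusted p of 0.0573. That adjusted p equals the smallest of any gene in this comparison. Many genes lay close to it, such as Cxcl14 and Ackr2 at 0.0574, so it does not set Ccl8 apart. Across the alternative settings its adjusted p ran from 0.000539 (DESeq2) to 0.313.

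Ccl12, a ligand of the monocyte receptor Ccr2, had 906, 1365, 589 and 408 normalised counts in Ctrl and 249, 290, 286 and 311 in AngII. Again the groups did not overlap, and the AngII mice were close to one another, at 284 ± 25.7 (SD, n = 4) against 817 ± 419. Ccl12 had a log2 fold change of -1.52 ± 0.37 with an adjusted p of 0.0584 (0.00311 to 0.313 over the alternatives). With a GC content correction the value was -2.20. Ccl5, which attracts T cells and monocytes, had 458, 397, 151 and 144 normalised counts in Ctrl and 108, 188, 93.7 and 126 in AngII. AngII 2 lay above the lower pair of Ctrl mice, and the difference of -1.16 ± 0.52 had an adjusted p of 0.183.

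Ccl2, the main ligand of Ccr2 and the best known attractant of inflammatory monocytes, went the other way. It had 693, 1674, 479 and 603 normalised counts in Ctrl and 918, 1747, 1360 and 3474 in AngII. Ctrl 2 lay within the AngII range, and the other 3 Ctrl mice below it. Ccl2 had a log2 fold change of 1.12 ± 0.50, 2.17-fold higher, with an adjusted p of 0.185. Without AngII 4, the smallest library and the highest Ccl2 value, the log2 fold change was 0.64, and with GC correction it was 0.72. Ccr2 itself, the receptor of Ccl2 and Ccl12, differed by 0.73 ± 0.58 with an adjusted p of 0.457.

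Because Ccl2, Ccl7, Ccl11, Ccl12 and Ccl8 lie side by side within 81.2 kb, their fold changes can be set out by position. In AngII vs. Ctrl, the log2 fold changes along the cluster were 1.12 ± 0.50 for Ccl2, -0.47 ± 0.37 for Ccl7, which also attracts monocytes, -0.54 ± 0.41 for Ccl11 (eotaxin), -1.52 ± 0.37 for Ccl12 and -2.13 ± 0.46 for Ccl8. The ratio of Ccl2 to Ccl8 counts within a library, which needs no normalisation between libraries, was 0.45 to 1.19 in the 4 Ctrl mice and 4.27 to 10.4 in the 4 AngII mice. It was 0.118 and 0.723 in the LY mice and 0.811 to 4.84 in the AngII+LY mice. AngII and Ctrl did not overlap in this ratio, nor in that of Ccl2 to Ccl12 (0.765 to 1.48 in Ctrl and 3.68 to 11.2 in AngII). Both ratios were formed after the values had been seen and are given with no test. In AngII+LY, 3 mice lay between 3.18 and 4.84 for Ccl2 to Ccl8, and AngII+LY 4 lay at 0.811, within the Ctrl range.

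**Figure D3:**
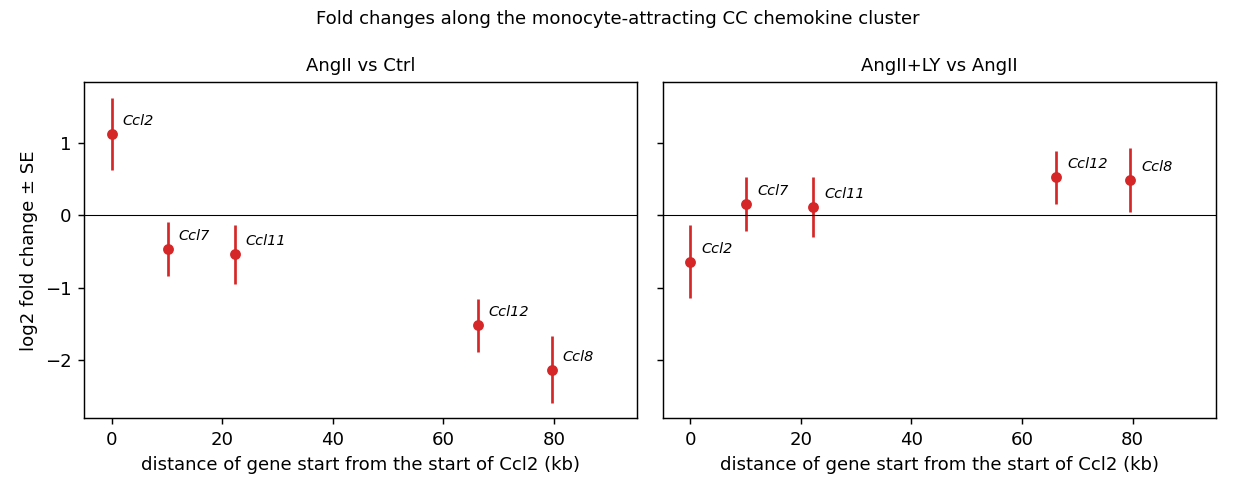
Log2 fold changes with standard errors (edgeR) of 5 neighbouring CC chemokine genes against the distance of their starts from that of Ccl2, in kb. In AngII vs. Ctrl the values run from 1.12 at Ccl2 to -2.13 at Ccl8, and in AngII+LY vs. AngII from -0.64 at Ccl2 to 0.52 at Ccl12. None of them passed the adjusted test.

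Macrophage markers were summed in the same libraries. The 14 macrophage markers, all detected in the table and none at 0 throughout, summed to 34722 to 118013 normalised counts in Ctrl and 30300 to 53891 in AngII, with overlap. The sums were 58969 and 84597 in the LY mice and 39056 to 93410 in the AngII+LY mice. Of these markers, 3 had log2 fold changes above 0 and 11 below in AngII vs. Ctrl, where 47.2% of all genes were above 0. An unadjusted p under 0.05, in either direction, was found for 9 of the 14, against 25.2% of all genes. Per 1000 counts of these markers, Ccl8 stood at 13.0 to 25.6 in Ctrl and 6.2 to 10.9 in AngII, still without overlap. Ccl12 stood at 7.68 to 14.8 in Ctrl and 5.77 to 8.22 in AngII, with overlap, and Ccl2 at 5.87 to 18.2 and 30.3 to 64.5, without it. Such a ratio also moves with the markers: Ccl9, whose own log2 fold change was 0.08, stood at 10.8 to 23.8 in Ctrl and 28.0 to 36.7 in AngII, without overlap. Summed markers of T and NK cells were lower in AngII by a small margin, at 349 to 504 against 509 to 902 in Ctrl. Of the 8 tested, 0 had log2 fold changes above 0, and 1 had an unadjusted p under 0.05, against 25.2% of all genes. What part the number of macrophages or T cells had in the chemokine values was not tested.

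**Figure D4:**
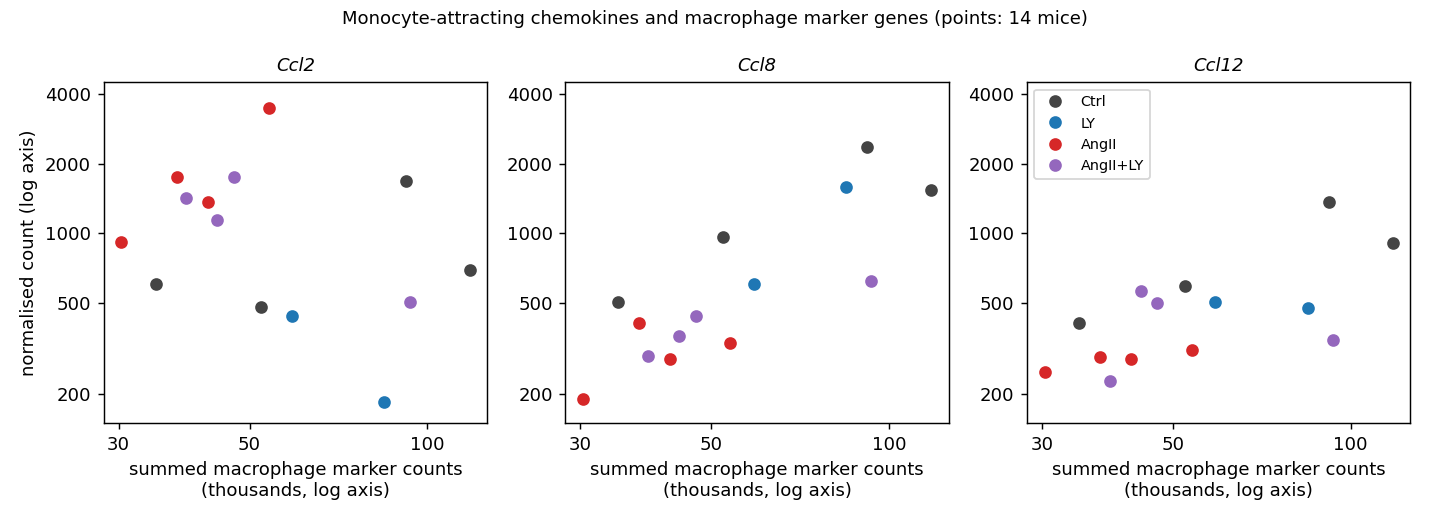
Normalised counts of Ccl2, Ccl8 and Ccl12 against the summed counts of 14 macrophage markers in the 14 mice, both on log axes and coloured by group. AngII mice have marker sums of 30300 to 53891 and lie below the Ctrl mice for Ccl8 and Ccl12. For Ccl2 they lie at 918 to 3474.

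In 5 further CC chemokines no unadjusted p was under 0.05. Ccl3 and Ccl4, made by activated myeloid and T cells, had 6.46 to 46.7 and 38.0 to 139 normalised counts in Ctrl and 9.93 to 29.3 and 10.3 to 39.7 in AngII. The log2 fold change of Ccl4, -1.72 ± 0.97 (adjusted p = 0.281), was larger in size than that of Ccl12, with a wider error. Ccl24, an attractant of eosinophils, lay at 276 to 702 in Ctrl and 116 to 418 in AngII. Ccl6 and Ccl9, which myeloid cells make without stimulation, lay at 2201 to 4553 and 809 to 1899 in Ctrl and at 1877 to 3303 and 897 to 1578 in AngII. In all 5 genes the AngII and Ctrl mice overlapped.

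Homeostatic chemokines, which are made by stroma in the absence of inflammation, had log2 fold changes below 0 in AngII vs. Ctrl for all 3 members, 2 of them at an unadjusted p under 0.05. Smooth muscle markers (6 of 6) and adipocyte markers (8 of 8) had values below 0 as well, 6 and 5 of them at that p. Of all genes, 47.2% had values above 0, and 11.7% were lower at that p. The summed smooth muscle markers were 444196, 69415, 11640 and 11953 normalised counts in Ctrl 1 to 4 and 11538 to 21952 in AngII. Ctrl 3 and 4 thus lay within the AngII range. The summed adipocyte markers were 45305 to 60022 in Ctrl and 20781 to 48411 in AngII, also with overlap. The part of both marker lists in the chemokine values was not tested. Cxcl14, a chemokine of epithelium and connective tissue, had 472, 901, 800 and 783 normalised counts in Ctrl, 412, 270, 278 and 119 in AngII, and 457, 436, 550 and 677 in AngII+LY. AngII lay below Ctrl and AngII+LY without overlap. Its log2 fold change was -1.45 ± 0.34 for AngII vs. Ctrl (adjusted p = 0.0574, 0.00149 to 0.324 over the alternatives) and 0.97 ± 0.34 for AngII+LY vs. AngII (adjusted p = 0.12). Because both comparisons use the 4 AngII libraries, their opposite signs are not independent.

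Cxcl12, the ligand of Cxcr4 that keeps leukocyte precursors in their niche, had 7082, 9755, 3034 and 3948 normalised counts in Ctrl and 3908, 3852, 2914 and 2458 in AngII. Ctrl 3 lay within the AngII range. Its log2 fold change was -0.86 ± 0.37 (adjusted p = 0.169) for AngII vs. Ctrl and 0.17 ± 0.37 (adjusted p = 0.832) for AngII+LY vs. AngII, the latter of the opposite sign, -0.19, without AngII+LY 4. Its scavenger Ackr3 had log2 fold changes of -0.51 and 0.22 in those comparisons, with adjusted p-values of 0.325 and 0.724. Cxcl13, the attractant of B cells, varied from 112 to 152 normalised counts in Ctrl and from 4.14 to 189 in AngII, and reached 511 in AngII+LY 1, where the summed B cell markers were also the highest of all libraries at 9989 normalised counts.

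Ccl21a and Ccl19, the ligands of Ccr7 that guide dendritic cells and T cells to lymphoid tissue, varied widely between mice. Ccl21a had 460, 2726, 829 and 410 normalised counts in Ctrl, 291, 326, 333 and 129 in AngII, and 336, 563, 780 and 5073 in AngII+LY. AngII lay below Ctrl and AngII+LY, closely so for the lowest AngII+LY mouse. For AngII vs. Ctrl the log2 fold change was -2.02 ± 0.88 (adjusted p = 0.17), and -1.06 without Ctrl 2. For AngII+LY vs. AngII it was 2.64 ± 0.90 (adjusted p = 0.116), and 1.04 without AngII+LY 4. Ccl21a has near-identical copies in the mouse genome, so reads may have been split or dropped among them, and its values are uncertain. Ccl19 had 138 to 643 normalised counts in Ctrl and 23.2 to 405 in AngII. Ccr7 had log2 fold changes of -2.82 ± 1.35 (adjusted p = 0.207) and 3.11 ± 1.36 (adjusted p = 0.197) in the same 2 comparisons. Ccr7 was scarce, with 24.8, 8.17, 0 and 0 normalised counts in AngII and 67.3, 187, 0 and 49.8 in AngII+LY.

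Among the 3 neutrophil-attracting chemokines whose windows are printed above, Cxcl5 stood apart from the others. Cxcl5 had 65.9, 35.8, 48.6 and 24.4 normalised counts in Ctrl, 37.2, 133, 149 and 847 in AngII, and 43.9, 7.1, 14.4 and 21.1 in AngII+LY. AngII 1 lay within the Ctrl and AngII+LY ranges and the other 3 AngII mice above them. Its log2 fold change was 2.73 ± 0.86 (adjusted p = 0.0867) for AngII vs. Ctrl and -3.74 ± 0.90 (adjusted p = 0.0588) for AngII+LY vs. AngII, and 1.28 and -2.30 without AngII 4. With GC correction the values were 1.82 and -3.04. Cxcl1 lay at 114 to 227 normalised counts in Ctrl, 118 to 220 with AngII and 65.9 to 265 with AngII+LY, so all groups overlapped. Cxcl2 was low, at 16.2 to 47.7 in Ctrl and 0 to 19.9 in AngII. Their receptor Cxcr2 stood at a mean of 0.666 in Ctrl and 0.988 in AngII, under the minimum for the test.

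Interferon-induced chemokines depended on single mice. Cxcl10, a ligand of Cxcr3 on T cells, had 62.5, 3331, 0 and 63.9 normalised counts in Ctrl, 540, 278, 0 and 33.1 in AngII, and 87.9, 23.7, 43.2 and 51.7 in AngII+LY. Without Ctrl 2, the log2 fold change of AngII+LY vs. Ctrl went from -4.06 ± 1.80 (adjusted p = 0.424) to 0.29. Cxcl9, a ligand of the same receptor, was also highest in Ctrl 2, at 375 normalised counts against 75.6 to 103 in the other Ctrl mice. The membrane-bound chemokines Cxcl16 and Cx3cl1 were well transcribed in all groups, with Cxcl16 at 3789 to 5251 in Ctrl and 3369 to 4758 in AngII. Cx3cl1, the ligand of Cx3cr1 on resident macrophages, lay at 3841 to 5884 in Ctrl, with 4922 and 4346 in AngII 1 and 2 and 2024 and 2558 in AngII 3 and 4.

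**Figure D5:**
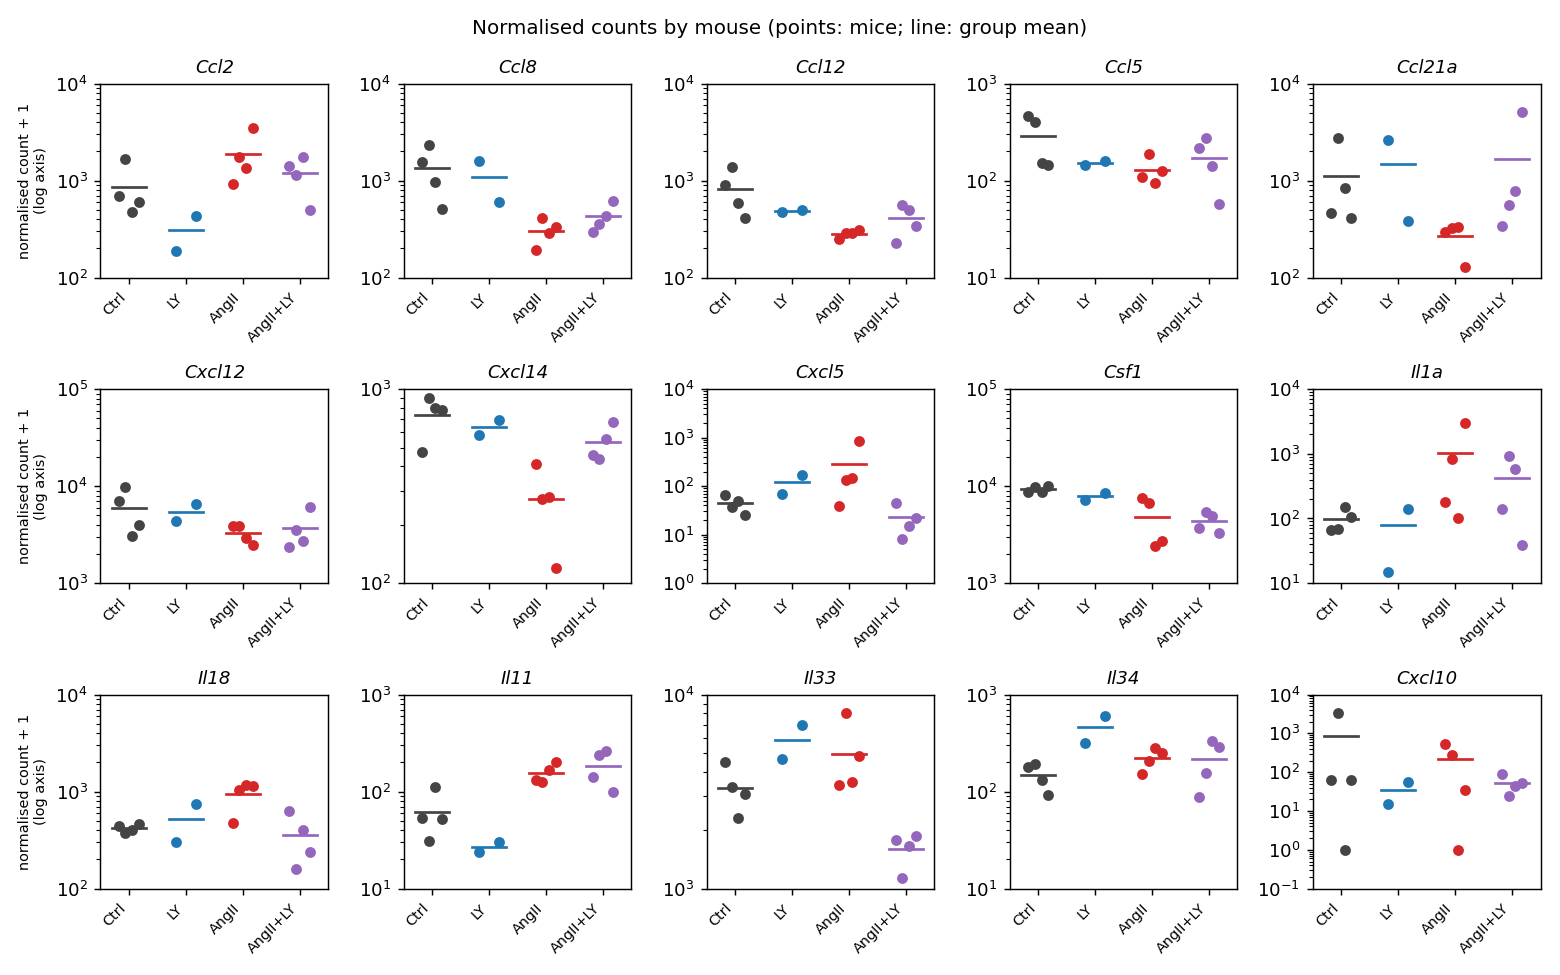
Normalised counts plus 1 of 15 genes in each of the 14 mice on log axes, with the group mean as a line. Ccl8, Ccl12, Ccl21a, Cxcl14 and Csf1 lie lower in all AngII than in all Ctrl mice, Il18 and Il11 lie higher, and Il33 lies lower in every AngII+LY mouse (1129 to 1870) than in any other mouse.

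In the IL-1 family, Il1a and Il18 were higher in AngII vs. Ctrl at an unadjusted p under 0.05. These were 2 of 4, against 13.4% of all genes, and Il33 and Il1b missed that p. Il18, which is cut to its active form by caspase-1, had 446, 372, 397 and 466 normalised counts in Ctrl, 477, 1031, 1164 and 1135 in AngII, and 632, 160, 399 and 238 in AngII+LY. Every AngII mouse lay above every Ctrl mouse, AngII 1 by a small margin, and AngII+LY 1 lay between the AngII mice. The log2 fold change of Il18 was 1.18 ± 0.42 (adjusted p = 0.114) for AngII vs. Ctrl and -1.41 ± 0.43 (adjusted p = 0.0875) for AngII+LY vs. AngII. Its receptor Il18r1 had log2 fold changes of 1.51 (adjusted p = 0.28) and -1.71 (adjusted p = 0.252), and its decoy Il18bp 0.28 (adjusted p = 0.61) and 0.07 (adjusted p = 0.92).

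Il33, an alarm cytokine kept in the nuclei of stromal and endothelial cells, gave the smallest p-value of the members. It had 4473, 3331, 2325 and 3080 normalised counts in Ctrl, 4631 and 6975 in LY, 3425, 8045, 3538 and 4804 in AngII, and 1777, 1129, 1659 and 1870 in AngII+LY. Every AngII+LY mouse lay below all 10 other mice. For AngII+LY vs. AngII the log2 fold change was -1.62 ± 0.30, 3.08-fold lower, with an unadjusted p of 8.1e-05 and an adjusted p of 0.0568 (6.9e-05 to 0.221 over the alternatives). Against Ctrl, AngII+LY was lower by -1.04 ± 0.29 (adjusted p = 0.261), and AngII vs. Ctrl gave 0.58, or 0.09 with GC correction. The summed interstitial cell and fibroblast markers were lower in AngII+LY than in AngII without overlap. All 10 of their log2 fold changes were below 0, where 49.1% of all genes were above 0. The part of this in Il33 was not tested. Il1rl1, the receptor of Il33, had a log2 fold change of 0.07 (adjusted p = 0.968).

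Il1a, a further alarm cytokine of the family, had 65.9, 68.3, 150 and 105 normalised counts in Ctrl, 178, 838, 99.7 and 3008 in AngII, and 137, 910, 585 and 37.4 in AngII+LY. AngII 3 lay within the Ctrl range and the other 3 AngII mice above it. Its log2 fold change was 3.40 ± 1.13 (adjusted p = 0.0971), 1.93 without AngII 4 and 2.54 with GC correction. Il1b had 154, 92.5, 86.4 and 145 in Ctrl, 86.8, 133, 72.1 and 109 in AngII, and 5.49, 107, 204 and 9.58 in AngII+LY. The log2 fold changes of Il1b were -0.25 ± 0.82 (adjusted p = 0.882) and -0.30 ± 0.83 (adjusted p = 0.872). Il1r1, the receptor of both, was lower in AngII+LY than in AngII by a log2 fold change of -1.0 with an adjusted p of 0.0697. Mean normalised counts of Il1r1 were 2010 for Ctrl, 2397 for LY, 2002 for AngII and 998 for AngII+LY.

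Of the gp130 cytokines, Il11, which is known to act on fibroblasts, had 52.9, 30, 110 and 51.7 normalised counts in Ctrl, 131, 126, 167 and 199 in AngII, and 141, 239, 259 and 97.7 in AngII+LY. AngII lay above Ctrl without overlap, and AngII+LY 4 lay below Ctrl 3. Il11 had a log2 fold change of 1.34 ± 0.48 (adjusted p = 0.114) for AngII vs. Ctrl and 1.59 ± 0.49 (adjusted p = 0.283) for AngII+LY vs. Ctrl. Its receptor Il11ra1 went the opposite way in AngII vs. Ctrl, at -1.10 with an adjusted p of 0.124. Il6 was scarce, with 19.1, 16.7, 10.8 and 84.0 normalised counts in Ctrl, 0, 40.2, 0 and 113 in AngII, and 0, 0, 0 and 14.4 in AngII+LY. Its log2 fold changes were 0.20 ± 1.72 (adjusted p = 0.959) and -3.28 ± 1.90 (adjusted p = 0.324), and the former turned negative under several alternatives and was -1.26 without AngII 4. The second was -1.83 without AngII 4, and without AngII+LY 4 the AngII+LY mice held 0 counts. Il6ra had log2 fold changes of -0.09 and 0.01 (adjusted p = 0.894 and 0.988). Lif lay at 147 to 246 in Ctrl and 99.3 to 276 in AngII, with overlap.

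Csf1, the growth factor of macrophages, had the smallest SD relative to its mean of the 36 members in control mice, with 8605, 9682, 8599 and 10089 normalised counts in Ctrl. It had 7457, 6753, 2387 and 2710 in AngII and 3658, 5440, 4950 and 3277 in AngII+LY. Both AngII groups lay below Ctrl without overlap. The log2 fold change was -0.94 ± 0.33 (adjusted p = 0.106) for AngII vs. Ctrl, -1.09 ± 0.33 (adjusted p = 0.276) for AngII+LY vs. Ctrl and -0.16 ± 0.32 (adjusted p = 0.821) for AngII+LY vs. AngII. The lowest of the AngII values were in AngII 3 and 4, the libraries with mitochondrial shares of 24.66% and 25.5%, against 11.05% and 9.83% in AngII 1 and 2, and the part of this was not tested. Csf1r, the receptor of Csf1 and Il34 on macrophages, had a log2 fold change of -1.25 with an adjusted p of 0.0874. Il34 lay at 91.9 to 191 normalised counts in Ctrl and 150 to 279 in AngII.

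For the 4 remaining cytokines no difference between AngII and Ctrl was detected. Tnf, the prototype inflammatory cytokine, had 19.1, 0, 6.48 and 24.4 normalised counts in Ctrl, 16.5, 0, 0 and 6.62 in AngII, and 0, 16.6, 0 and 3.83 in AngII+LY. Its log2 fold changes were -1.11 ± 1.66 (adjusted p = 0.719) and -0.15 ± 1.68 (adjusted p = 0.974), and the latter changed sign under several alternatives, so a difference was not detectable at this depth. Without AngII 1 they were -2.95 and 1.69. Il15, which sustains NK and T cells, lay at 1841 to 2463 in Ctrl and 1992 to 2890 in AngII. Il16, a ligand of CD4, lay at 1077 to 1621 in Ctrl and 821 to 1381 in AngII, and Tslp, which acts on dendritic cells, at 231 to 520 and 364 to 610, with a log2 fold change of 0.72 ± 0.35 (adjusted p = 0.215).

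When AngII+LY was compared with AngII, 5 of 36 members (13.9%) had an unadjusted p under 0.05, against 22.5% of all genes. Ccl21a and Cxcl14 were higher in AngII+LY (5.56% of members, against 10.1% of all genes) and Cxcl5, Il18 and Il33 lower (8.33%, against 12.4%). For 3 members (8.33%, against 11.1% of all genes) the groups did not overlap, with Ccl21a and Cxcl14 higher (against 5.45%) and Il33 lower (against 5.66%). Above 0 were 17 of the 36 log2 fold changes, against 49.1% of all genes. The median log2 fold change was -0.04 over the members and -0.02 over all genes. Ccl8 and Ccl12 had 294, 359, 436 and 618 and 228, 560, 500 and 343 normalised counts in AngII+LY, overlapping with AngII. Their log2 fold changes against AngII were 0.48 and 0.52. The log2 fold change of Ccl2 against AngII was -0.64 ± 0.50 (adjusted p = 0.486).

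In AngII+LY vs. Ctrl, 8 members (22.2%) had an unadjusted p under 0.05, against 11% of all genes. Il11 was the 1 higher member (2.78%, against 4.89% of all genes), and 7 were lower (19.4%, against 6.14%). Csf1 and Il33 were the 2 without overlap (5.56%, against 8.16% of all genes), both lower (against 4.89%), while 0 were higher without overlap (against 3.27%). Above 0 were 8 of the 36 log2 fold changes, against 48.1%. Beside Csf1, Il33 and Cxcl10, given above, the lower members were Ccl8 at a log2 fold change of -1.65 ± 0.45 (adjusted p = 0.242), Ccl12 at -1.0 ± 0.36 (adjusted p = 0.341), Ccl19 at -1.47 ± 0.65 (adjusted p = 0.42) and Il16 at -0.63 ± 0.25 (adjusted p = 0.372). Ccl19 had 643, 394, 138 and 294 normalised counts in Ctrl and 157, 173, 97.9 and 102 in AngII+LY, and Ctrl 3 lay within the AngII+LY range. Il16 had 1621, 1302, 1077 and 1267 in Ctrl and 860, 666, 1264 and 624 in AngII+LY, where AngII+LY 3 alone lay within the Ctrl range.

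With 2 LY mice, LY vs. Ctrl rests on few libraries. 4 members (11.1%) had an unadjusted p under 0.05 against 1.39% of all genes, and 12 (33.3%) did not overlap between the groups against 12%. At that p, 2 were higher (against 0.627% of all genes) and 2 lower (against 0.763%), and of those without overlap 6 were higher (against 5.64%) and 6 lower (against 6.41%). Above 0 were 10 of the 36 log2 fold changes, against 45.9%. Ccl2 had 186 and 436 and Ccl7 331 and 400 normalised counts in LY, each below all 4 Ctrl mice, which for Ccl7 stood at 1021, 1716, 617 and 629. Their log2 fold changes were -1.47 ± 0.66 and -1.45 ± 0.48, both with an adjusted p of 1, and Ccl2 was at -2.21 without LY 2. Il33 and Il34, the second ligand of Csf1r, were higher, Il34 with 318 and 599 in LY against 180, 191, 130 and 91.9 in Ctrl. Their log2 fold changes were 0.81 ± 0.35 and 1.63 ± 0.51, again with an adjusted p of 1. The other 8 members without overlap were Cxcl5, Cxcl13, Il15 and Tnf, higher, and Cxcl9, Csf1, Il11 and Il1b, lower.

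Whether the antagonist differed in its association with and without AngII was tested as an interaction, the AngII+LY vs. AngII difference minus the LY vs. Ctrl difference. No member passed, and the smallest adjusted p over all genes was 0.295. At an unadjusted p under 0.05 stood 7 members (19.4%, against 13.3% of all genes), with positive values for Ccl12, Ccl7 and Cxcl14 (against 5.66%) and negative values for Cxcl5, Il18, Il33 and Il34 (against 7.64%). Above 0 were 23 of the 36 values, against 51.8%. For Il33 the interaction was -2.44 ± 0.45 on the log2 scale (unadjusted p = 8.9e-05 in edgeR, adjusted p = 0.295), from 0.81 without AngII and -1.62 with it. For Cxcl5 it was -5.19 ± 1.28 (adjusted p = 0.295), for Il18 -1.74 ± 0.65 (adjusted p = 0.307), for Il34 -1.66 ± 0.68 (adjusted p = 0.333), and for Ccl7 1.59 ± 0.59 (adjusted p = 0.307). For Ccl12 it was 1.27 ± 0.58 (adjusted p = 0.37) and for Cxcl14 1.18 ± 0.53 (adjusted p = 0.366).

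The receptors of these factors were counted from lists of their own, against 25.2% of all genes at an unadjusted p under 0.05 in AngII vs. Ctrl and 22.5% in AngII+LY vs. AngII. Of 16 chemokine receptors tested out of 20 listed, Ackr2 had an unadjusted p under 0.05 in AngII vs. Ctrl. Ackr2 takes up and degrades inflammatory CC chemokines. It had 154, 407, 323 and 380 normalised counts in Ctrl (mean 316) and 386, 823, 1793 and 1194 in AngII (mean 1049). AngII 1 lay within the Ctrl range. The log2 fold change of Ackr2 was 1.73 with an adjusted p of 0.0574. In AngII+LY vs. AngII, Ccr7 and Cxcr5 (3.36, adjusted p = 0.174) were higher and Cxcr4 lower (-1.15, adjusted p = 0.221). Cxcr5 was scarce as well, with 16.5, 0, 2.4 and 0 normalised counts in AngII and 46.7, 16.6, 130 and 17.2 in AngII+LY. Of 22 cytokine receptors and decoys, Lifr, a receptor chain of Lif, was higher in AngII than in Ctrl (0.73, adjusted p = 0.0873), and Il11ra1, Csf1r and Csf3r (-1.90, adjusted p = 0.198) were lower. In AngII+LY vs. AngII, Il1r1, Lifr (-0.67, adjusted p = 0.119) and Osmr (-0.73, adjusted p = 0.115) were lower and 0 were higher at an unadjusted p under 0.05. No receptor passed the adjusted test. The counts of 1 of 16 and 4 of 22 in AngII vs. Ctrl were not above the share of all genes. Nor were those of 3 of 16 and 3 of 22 in AngII+LY vs. AngII. In AngII+LY vs. Ctrl, 5 of 22 were lower at that p (against 6.14% of all genes) and 0 higher (against 4.89%). The 5 were Il1r1, Il6st, Il11ra1, Csf1r and Tnfrsf1b. Of the 16 chemokine receptors, Ackr2 was higher and Cx3cr1 lower there.

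NF-kB is the transcription factor that drives many of these genes, and its feedback inhibitors are among its own targets. Of 20 genes of NF-kB subunits and feedback targets, 2 had higher and 7 had lower levels with AngII at an unadjusted p under 0.05 against Ctrl, where 13.4% and 11.7% of all genes did, and the median log2 fold change of the list was -0.41. Nfkbiz (0.89, adjusted p = 0.0867) and the leukocyte adhesion molecule Vcam1 (1.29, adjusted p = 0.0821) were higher. The lower genes were Nfkb1 (-0.63, adjusted p = 0.136), Relb (-0.60, adjusted p = 0.103), Nfkbia (-0.66, adjusted p = 0.112) and Nfkbib (-0.81, adjusted p = 0.0724). Lower too were Irf1 (-0.51, adjusted p = 0.138), Bcl3 (-1.11, adjusted p = 0.0717) and Socs3 (-0.88, adjusted p = 0.149). Within the AngII group, all 7 were lowest in AngII 3 and 4, the libraries with mitochondrial shares of 24.66% and 25.5%. Nfkbiz was highest in AngII 3 and 4, whereas Vcam1 was highest in AngII 4 and lowest in AngII 3. Nfkb1 had 1767, 1263, 945 and 768 normalised counts in the AngII mice, and Bcl3 416, 524, 205 and 199. The part of this was not tested. In AngII+LY vs. AngII, 3 of 20 were higher (against 10.1% of all genes) and 3 lower (against 12.4%) at an unadjusted p under 0.05. Nfkbib (0.75), Bcl3 (0.87) and Socs3 (0.95) were higher and Nfkbiz (-0.76), Vcam1 (-0.96) and Sele (-1.14) lower. Their adjusted p-values ran from 0.092 to 0.164.

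Genes of cytokine processing, that is proteases and parts of the inflammasome, formed the last list, of which 10 of 11 were tested. In AngII vs. Ctrl, Casp1, Casp4, Adam17 and Adam10 were higher (4 of 10, against 13.4% of all genes) and Mmp9 lower (1 of 10, against 11.7%) at an unadjusted p under 0.05. In AngII+LY vs. AngII, 4 of 10 were lower (against 12.4%) and 0 higher. Within the AngII group, Casp1, Casp4 and Adam17 were highest and Mmp9 lowest in AngII 3 and 4, where mitochondrial shares were 24.66% and 25.5%. Casp4 had 1744, 2103, 2435 and 2938 normalised counts in the AngII mice. Adam10, with 10659, 15591, 13486 and 21719, was not ordered in that way. The part of the mitochondrial share was not tested. Casp4, the inflammatory caspase that senses bacterial lipopolysaccharide, had a log2 fold change of 1.04 (adjusted p = 0.0584) in AngII vs. Ctrl and -1.15 (adjusted p = 0.0588) in AngII+LY vs. AngII, and means of 1118, 2305 and 1038 normalised counts in Ctrl, AngII and AngII+LY. Adam10, which sheds Cx3cl1 and Cxcl16 from the cell surface, had values of 1.19 (adjusted p = 0.0619) and -1.19 (adjusted p = 0.0713). Casp1, which cuts Il1b and Il18, had values of 0.73 (adjusted p = 0.186) and -0.73 (adjusted p = 0.212). Adam17, the sheddase of Tnf, stood at 0.49 (adjusted p = 0.183) and Mmp9 at -2.35 (adjusted p = 0.128) in AngII vs. Ctrl, and Dpp4, which trims chemokines, at -1.01 (adjusted p = 0.176) in AngII+LY vs. AngII.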

How the data were processed

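Whole aortic valve leaflets of 14 mice were sequenced as bulk RNA. The authors aligned reads to GRCm39 with HISAT2, counted them per gene with featureCounts and deposited 1 table of raw counts for 56941 Ensembl genes. The table is named as normalised, but all values are whole, low even counts (31714 values from 1 to 8) exceed low odd ones (21027), and totals differ between libraries, so the test for counts was used in place of that for normalised values. Strand of counting was not given in the sources used here, so reads of antisense or overlapping genes cannot be told apart. Symbols came from GENCODE vM39, in which 618 genes (0.0361% of counts) had no match. Promoter windows were read from GRCm39. Samples are labelled as separate mice.

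The 19145 genes whose count averaged 10 or more over the libraries entered edgeR's quasi-likelihood test (version 4.0.16, R 4.3.3, default settings), with TMM and all 4 groups in 1 fit (common dispersion 0.353). Calls needed an adjusted p (Benjamini-Hochberg) under 0.05 and a log2 fold change beyond 0.5 in size. Alternatives were DESeq2 1.42.0, its size factors, no filter, only the compared groups, robust estimation, a replicate block, loess correction for GC content (span 0.3), the block with that correction, and omission of single mice. edgeR's newer quasi-dispersion, alone, with GC correction or without AngII 4, was added after seeing the data. The pipeline was tested on simulated counts.

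The members and all lists were chosen with earlier results of these data known. By rule, a fold change with its error and adjusted p is given for members with an unadjusted p under 0.05 or groups of 4 without overlap. It is given in any case for Ccl2, Cxcl12, Il1b, Il6, Tnf and Csf1 in AngII vs. Ctrl and AngII+LY vs. AngII. Some fold changes are given beyond this rule, among them those of Ccl4, Tslp, Ccl7, Ccl11 and Il33 in AngII vs. Ctrl. They are not among the 38 fold changes followed through the alternatives below. Genes of the receptor, NF-kB and cytokine processing lists are named at an unadjusted p under 0.05 or as receptor of a member. Intervals and floors cover counting error only.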

Additional observations from a re-analysis of the deposited data

Results flagged for a closer look

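In 9 of 108 groups of 4 mice, the highest or lowest value of a member stood far from the other 3 by Dixon's test, where chance gives about 1 in 20 groups, or 5.4. Cxcl10 in Ctrl 2 had 3331 normalised counts against 0 to 63.9 in the other Ctrl mice, and Cxcl9, induced by the same interferon, had 375 there against 75.6 to 103. Cxcl9 in AngII+LY 1 had 249 against 91.1 to 102. Ccl21a in AngII+LY 4 had 5073 against 336 to 780, Cxcl5 in AngII 4 had 847 against 37.2 to 149, and Tslp in Ctrl 4 had 520 against 231 to 261. Il6 had 84.0 in Ctrl 4 against 10.8 to 19.1, and 14.4 in AngII+LY 4 against 0 in the other 3. Ccl3 in AngII+LY 3 had 14.4 against 23.0 to 24.7.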

How the results depend on the processing

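Of 38 fold changes of members between groups (not interactions or genes of other lists), 32 kept their sign under all alternatives run. Of 701 values under alternatives, 647 kept sign and side of the threshold, 33 passed it in addition and 21 changed sign. Most of the 38 were picked by unadjusted p or lack of overlap in the main fit, and the alternatives reuse the same libraries. Kept signs thus follow largely from that choice and are no independent support. No member was called in the main fit, so keeping the side of the threshold meant staying uncalled. The number of calls depended on the tool. DESeq2 called 2648 genes and 8 members for AngII vs. Ctrl, 2062 and 5 for AngII+LY vs. AngII, 343 and 4 for AngII+LY vs. Ctrl, and 21 genes and 0 members for LY vs. Ctrl, where 7 members had an unadjusted p under 0.05 (2.24% of all genes). Without a filter, edgeR called 123 genes and 1 member (Ccl8), 1 gene, and 13 genes in the first 3 comparisons. The newer quasi-dispersion, added later, called 555 genes and 3 members (Ccl8, Ccl12 and Cxcl14) for AngII vs. Ctrl and 176 genes and 1 member (Il33) for AngII+LY vs. AngII, and no member with GC correction or without AngII 4, where it called 12 genes for AngII+LY vs. Ctrl and 3 genes for AngII+LY vs. AngII, respectively. Leaving out 1 mouse gave 0 to 1725 genes and 0 to 5 members (most without AngII 1; 2 members without Ctrl 4 and 1 without AngII 2) for AngII vs. Ctrl, 0 to 844 genes and 0 to 3 members (most without AngII 1) for AngII+LY vs. AngII, 0 to 3 genes for AngII+LY vs. Ctrl and 0 to 0 for LY vs. Ctrl. Members at an unadjusted p under 0.05 then numbered 7 to 12 (7 without AngII 4), 5 to 6, 5 to 10 (5 without Ctrl 2) and 3 to 4 in the 4 comparisons, against 16.5% to 29.6%, 16.6% to 25.4%, 7.56% to 13.4% and 0.582% to 1.99% of all genes. Replicate numbers did not pair the mice (correlations of -0.128 to 0.09 over 18 same-numbered pairs). The replicate block gave 0 calls for AngII vs. Ctrl. It gave 10 members at an unadjusted p under 0.05 (23.1% of all genes), and 7 with GC correction added (11.4%). GC correction alone gave 10 members at that p in AngII vs. Ctrl (13.2% of all genes), against 12 (25.2%) in the main fit. With the newer quasi-dispersion, 14 members stood at that p with GC correction (15.1%) and 14 without it (27.6%). In AngII+LY vs. AngII, GC correction alone gave 6 members (15.4%), against 5 (22.5%) in the main fit. The legacy quasi-likelihood fit is the default used here and was not run again.

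Of these 38, 6 changed sign. Il6 in AngII vs. Ctrl was -0.39 with the newer quasi-dispersion, -1.04 with GC correction added, -1.02 without AngII 4, -1.0 under the replicate block, -0.66 with GC correction, -1.81 with both, and -1.26 to 1.27 over mice left out. In AngII+LY vs. AngII, Tnf was 0.09 and, without AngII 4, 0.13 with the newer quasi-dispersion, 0.2 under the block and -1.92 to 1.69 over mice left out. Over mice left out, Csf1 ran from -0.38 to 0.13, Il1b from -1.31 to 0.09 and Cxcl12 from -0.19 to 0.33 in AngII+LY vs. AngII, and Cxcl10 from -4.48 to 0.29 in AngII+LY vs. Ctrl. The causes were not tested. Il6, Tnf and Cxcl2 have few counts, which limits them.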
